A study of Mus musculus with 2 samples.

Results

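In 32 places of the mouse genome, a pair of annotated microRNA genes lie on opposite strands and overlap, and the gene of each pair with fewer reads in mouse heart is described here. The pairs were taken from the gene annotation release M21 (build mm10) wherever miRNA-type genes of opposite strands overlapped by at least 1 base. The weaker gene of a pair was the one with the lower number of reads on its own strand, summed over both libraries, and the minus-strand gene where the sums tied. Mir126b was left out, so that 31 of the 2202 annotated microRNA genes were members, and the stronger gene of each pair is called its partner. The members were thus chosen by their reads on the gene's strand, and their being lower than their partners is no result. The samples were 2 small RNA libraries from heart of adult female mice of the strain label 5xFAD/CAST, 8 to 10 months old, given as biological replicates 1 and 2. CAST is a wild-derived inbred strain, and 5xFAD is a transgenic line that serves as a model of Alzheimer disease. There was no control or comparison group, and the labels name 1 donor identifier for both libraries, so that their spread can be technical.

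A microRNA is cut from a hairpin, a transcript that folds back on itself. The reverse complement of a hairpin can also fold into a hairpin, and some loci are therefore annotated as microRNA genes on both strands. The products of the opposite strands usually differ in sequence and in the seed, bases 2 to 8, through which a microRNA recognises its targets. Only counts that keep the strand of each read can separate them.

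The mature sequences below show why the strand matters at these loci. They are from RefSeq (build GRCm38.p6), 5′ to 3′, with the seed in capitals. A mature sequence was given for 21 of the 31 members. None was given for Mir3107, the member with the most reads, or for its partner Mir486, so their seeds were not compared. Mir3107 and Mir486 share an identical run of 22 bases. In the first pairs the weaker-strand product lies across from a mature product of its partner.
miR-3074-5p of Mir3074-1, chr13:63301249-63301270, minus strand: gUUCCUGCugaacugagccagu
miR-24-3p of Mir24-1, chr13:63301251-63301272, plus strand: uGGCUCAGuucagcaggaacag
miR-3065-5p of Mir3065, chr11:120014780-120014801, plus strand: uCAACAAAaucacugaugcugg
miR-338-3p of Mir338, chr11:120014781-120014802, minus strand: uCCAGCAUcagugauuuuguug
miR-30f of Mir30f, chr4:120772621-120772642, plus strand: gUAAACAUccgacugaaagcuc
miR-30e-3p of Mir30e, chr4:120772618-120772639, minus strand: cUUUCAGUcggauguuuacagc
miR-3074-5p and miR-24-3p occupied 20 bases in common and were complementary over all 20, and miR-3065-5p and miR-338-3p over 21. Of these 21 members, 19 had a product complementary to a product of the partner over a run of 15 or more bases. The seeds nearly always differed: 3 of them shared a seed with the partner, namely Mir5615-2, Mir299b and Mir3073b. The 35 mature sequences of these members held 34 different seeds, and the 1 seed found in 2 members was that of miR-3074-5p, which Mir3074-1 and Mir3074-2 both encode.

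In other pairs the hairpin is so symmetrical that both strands hold nearly the same product.
miR-299b-5p of Mir299b, chr12:109710673-109710693, minus strand: gGUUUACCgucccacauacau
miR-299a-5p of Mir299a, chr12:109710644-109710665, plus strand: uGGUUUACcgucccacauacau
miR-374c-5p of Mir374c, chrX:103573086-103573105, plus strand: aUAAUACAaccugcuaagug
miR-374b-5p of Mir374b, chrX:103573112-103573133, minus strand: aUAUAAUAcaaccugcuaagug
miR-299b-5p and miR-299a-5p shared a run of 21 bases, and miR-374c-5p and miR-374b-5p a run of 20. In the Mir299b hairpin, printed next with that run in capitals, the run is found at the 5′ end.
Mir299b hairpin, chr12:109710645-109710693, minus strand: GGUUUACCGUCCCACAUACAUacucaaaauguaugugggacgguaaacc

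The members were short annotated genes, 20 on the minus and 11 on the plus strand. Their lengths ran from 49 to 125 bases (median 83.0) and the overlaps from 49 to 93 bases (median 68.0). In 17 pairs the member contained the whole partner, and in 16 it lay inside the partner, 3 pairs with equal ends being counted in both. Neither gene contained the other in 1 pair. Chromosome 12 held 8 members, and 22 members had a Mir symbol against all 31 partners. The other 9, such as Gm25301 opposite Mir378a, carried only a predicted gene symbol.

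Few members lay inside another gene of their own strand. By the annotation, 26 members were intergenic on their own strand, 3 were intronic and 2 exonic, whereas 15 partners were intergenic, 13 intronic and 3 exonic. Of the 26 intergenic members, 13 lay across from a gene on the other strand that contained them. Mir3065 (11, 120014767 to 120014853), for example, had no host and lay across from Aatk, whose intron holds Mir338. The intronic members were Mir3107 in the noncoding antisense gene Gm15816, Mir3074-1 in Fancc, a gene of the Fanconi anemia DNA repair pathway, and Mir1b in Mib1, a ubiquitin ligase of Notch signalling. Mir3071 overlapped an exon of the imprinted retrotransposon-like gene Rtl1, and Mir292b an exon of Nlrp12.

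MicroRNA genes received 4186560 reads on their own strand in replicate 1 and 2877511 in replicate 2, and all levels are raw counts or counts per 1000000 of these totals (CPM). Of the 31 members, 9 had at least 1 read in either library, which is 29.0%, close to the 32.2% of all 2202 genes. The level of 1 CPM in both libraries was reached by 2 members, beside 17.3% of all genes, and by 22 partners. All members together had 175 reads in replicate 1 and 143 in replicate 2. As a check of the tissue, 7 of 7 cardiomyocyte genes stood at 1 CPM or more in both libraries, with summed levels of 6544 CPM in replicate 1 and 4789 in replicate 2. The 3 endothelial genes summed to 176135 and 49984 CPM, of which Mir126a alone held 174314 and 46780. The 2 smooth muscle genes summed to 32911 and 56334 CPM, and the 4 leukocyte genes to 5369 and 7640. The 2 erythroid genes summed to 755 and 230 CPM. The liver gene Mir122 was found as well, at 19.1 and 57.3 CPM, and the 3 neuronal Mir124a genes were at 0. Reads that fitted several places are in none of these levels, so the sums do not rank the cell types.

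Mir3107 had the most reads of all members. It lies at chr8:23142573-23142662 on the minus strand, wholly inside the span of Mir486, a microRNA gene of red cells and muscle in an intron of Ank1. Mir3107 had 118 reads in replicate 1 and 113 in replicate 2, or 28.2 and 39.3 CPM (33.7 ± 7.84, SD, n = 2). Mir486 had 4155 and 3158 reads. The weaker strand therefore held 2.76% of the reads of this pair in replicate 1 (95% interval 2.29 to 3.30, by the exact Clopper-Pearson method) and 3.46% in replicate 2 (2.86 to 4.14). These and all later intervals and limits cover only counting error, because the reads carried no molecular identifiers and are not independent molecules.

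Mir3074-1 was the other member above 1 CPM in both libraries. It lies at chr13:63301199-63301283 on the minus strand, across from Mir24-1, one of a pair of genes for miR-24. Mir3074-1 had 47 reads in replicate 1 and 26 in replicate 2, or 11.2 and 9.04 CPM (10.1 ± 1.55, SD, n = 2). Mir24-1 had 427 and 410 reads. The weaker strand held 9.92% of the pair's reads in replicate 1 (7.38 to 13.0) and 5.96% in replicate 2 (3.93 to 8.62), and these intervals overlap. Its paralog Mir3074-2, across from Mir24-2, had 2 reads and 0 reads, beside 1153 and 314 of Mir24-2. The mature product printed above for Mir3074-1 is identical in Mir3074-2. Reads within that product fit several places and were counted for neither gene, so the counts given here leave them out.

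The other 7 members with a read each had 7 reads or fewer over both libraries. Mir3065, across from Mir338, had 5 and 2 reads, beside 945 and 621 reads of Mir338, which is 0.526% of the pair in replicate 1 (0.171 to 1.22) and 0.321% in replicate 2 (0.0389 to 1.16). Mir497b, across from Mir497, had 0 reads and 1 read, and Gm25927, across from the let-7 gene Mirlet7e, also had 0 and 1. Gm24111, across from Mirlet7f-1, and Mir1b and Mir219b, across from Mir1a-2 and Mir219a-2, each had 1 read in replicate 1 and 0 in replicate 2. No direction between the libraries can be read from counts this low.

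**Figure D1:**
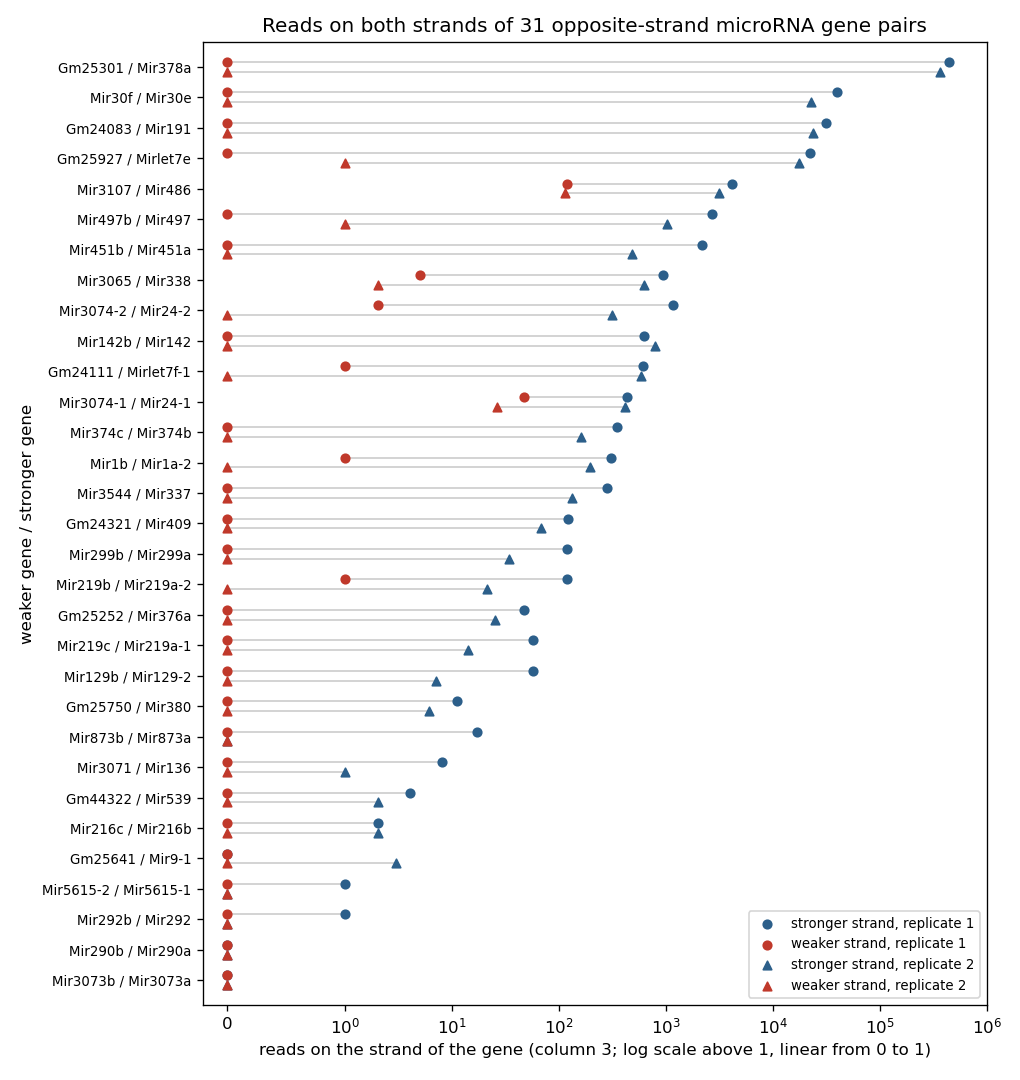
Reads on the strand of each gene (column 3, log axis above 1) for the 31 pairs, ordered by the partner's reads, with circles for replicate 1 and triangles for replicate 2. Mir3107 and Mir3074-1 are the only weaker genes above 10 reads in both libraries, and 22 weaker genes are at 0 in both.

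At 22 members no read was counted in either library, and 5 of these had a partner with 1000 or more reads. Gm25301, across from Mir378a, a microRNA of a mitochondrial coactivator gene, had 0 reads beside 442177 and 363354 of Mir378a, which allows a share of up to 0.000678% and 0.000826%. Mir30f had 0 beside 40000 and 22576 reads of Mir30e, and Gm24083 had 0 beside 31575 and 23676 of Mir191. Mir451b, across from the red cell gene Mir451a (2155 and 484 reads), and Mir142b, across from the leukocyte gene Mir142 (615 and 789 reads), were at 0 as well. Over these 5 loci no weaker-strand read was counted beside 927401 partner reads, which allows a share of up to 0.000324%. Mir378a supplied most of these reads, so the pooled limit does not hold for each locus. The limits in replicates 1 and 2 were 0.139% and 0.620% at Mir451b, and 0.488% and 0.380% at Mir142b.

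The zeros of the remaining 17 members say less. Of them, 15 had partners with 1 to 504 reads, so that a weaker-strand share of up to 0.870% in replicate 1 and 1.89% in replicate 2 was still possible at Mir374c (345 and 159 reads of Mir374b). At Mir299b the limits were 2.54% and 8.82% (118 and 34 reads of Mir299a). For Mir374c and Mir299b the limits hold only for reads that fitted 1 place. Both Mir299b products and miR-374c-5p are contained whole in products of the partner, so their reads fit both strands and could not be counted. Partners with 3 reads or fewer in a library, such as Mir216b with 2 and 2, set no limit at all. In the pairs of Mir290b and Mir3073b both strands were at 0, and the minus-strand gene was taken by the rule for ties. The pairs of Mir292b and Mir5615-2 were the next closest, with 0 reads against 1.

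Pooled over the 31 pairs, the weaker strand held 0.0318% of 550345 reads in replicate 1 (0.0273 to 0.0369) and 0.0329% of 435172 in replicate 2 (0.0277 to 0.0387). The mean was 0.0323% ± 0.000751 (SD, n = 2). Nearly all of it came from a pair of loci: Mir3107 and Mir3074-1 supplied 94.3% and 97.2% of the weaker-strand reads. The other 29 members together had 10 and 4 reads, or 0.00183% and 0.000927% of the reads of their pairs. Mir378a supplied most of the denominator, and without its pair the share was 0.162% and 0.199%.

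Genes without an opposite-strand microRNA gene serve as a reference for opposite-strand reads. Over 2138 such genes, reads on the opposite strand made up 0.00444% in replicate 1 (0.00371 to 0.00527) and 0.00312% in replicate 2 (0.00244 to 0.00393). Of 108 such genes with 1000 or more reads on both strands together, 96 had none on the opposite strand, and the highest share was 0.136%, at Mir324. Over both libraries the weaker strand held 8.02% at Mir3074-1, from 910 reads of the pair, 3.06% at Mir3107 and 0.445% at Mir3065. None of the 108 genes was above any of these shares, but these 3 members were picked for having the most reads of all members. The shares of Mir3074-1 and Mir3107 also cover only reads that fitted 1 place. Reads within miR-24-3p, identical at Mir24-1 and Mir24-2, are in neither. Nor are reads within the stretches that Mir486 shares with Mir3107, the longest of 22 bases. The same holds for reads within the printed mature product of Mir3074-1, which is identical at Mir3074-2. The strand shares over all reads of these loci were not measured. The other 29 members beside Mir3107 and Mir3074-1 were together below the unpaired genes, at the 0.00183% and 0.000927% given above. This order rests on the Mir378a pair, which gave 442177 and 363354 of their 545598 and 431465 pair reads without a weaker-strand read. Without that pair, the others would together lie above the unpaired genes in both libraries. They had 10 reads in replicate 1 and 4 in replicate 2, of which Mir3065 alone gave 5 and 2. No interval was computed for them without the Mir378a pair, so no firm order can be read from these counts. Of 11 members in pairs with 1000 or more reads, 5 had no weaker-strand read, beside 96 of the 108 unpaired genes. The rule used the weaker-strand reads, so this is a description and was not tested.

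**Figure D2:**
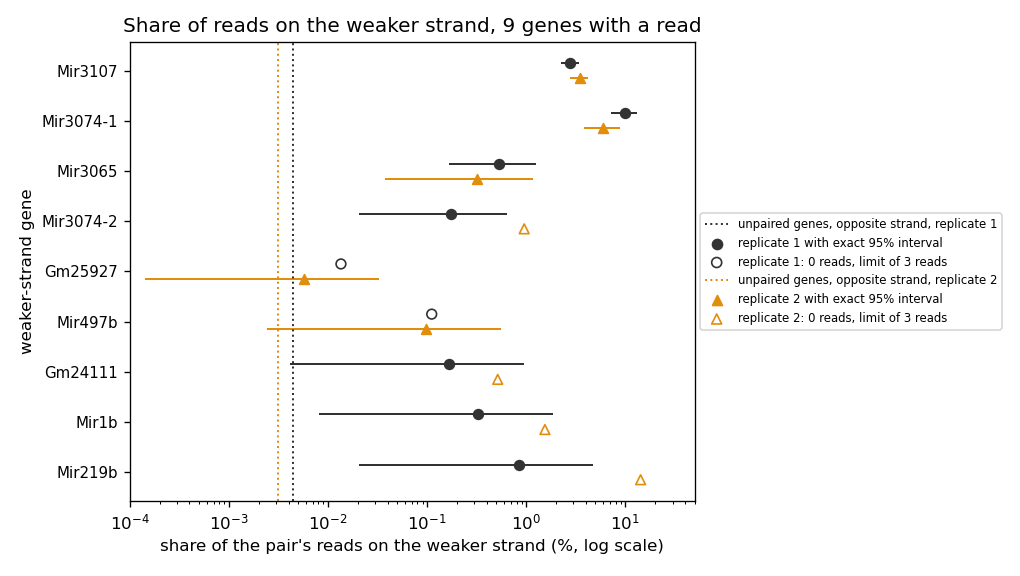
Share of a pair's reads on the weaker strand (percent, log axis) for the 9 members with a read, with exact 95% intervals. Open symbols mark libraries with 0 reads at the limit of 3 reads, and dotted lines mark the opposite-strand share of unpaired genes. Mir3107 and Mir3074-1 lie between 2.76% and 9.92%, and the replicate 2 intervals of Gm25927 and Mir497b span both dotted lines. The replicate 1 interval of Gm24111 spans the line of its own library.

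The members' counts differed widely by column. Column 2 of the deposited tables counts reads of either strand, column 3 those on the strand of the gene and column 4 those on the other. In column 4, 28 of 31 members had exactly the partner's column 3 count in both libraries, and Gm25301 (442178 against 442177), Mir142b and Mir219c differed from the partner by 1 read in 1 or both libraries. The converse was exact, since column 4 of each of the 31 partners equalled column 3 of the member in both libraries. Read through column 4, 22 members instead of 2 would reach 1 CPM in both libraries, with Gm25301 at 442178 and 363354 reads, Mir30f at 40000 and 22576 and Gm24083 at 31575 and 23676. The columns hold the same reads, and this agreement is no independent measure.

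In column 2 the members disappeared. All 9 members with column 3 reads fell to 0 in both libraries, Mir3107 from 118 and 113 and Mir3074-1 from 47 and 26. Column 2 had 1 member read in each library, for Gm25301 in replicate 1 and Mir142b in replicate 2, and 1 partner read in each, both for Mir219a-1. Mir219a-1 extends beyond Mir219c, as Gm25301 and Mir142b extend beyond their partners. The 31 pairs had 550344 reads in replicate 1 and 435171 in replicate 2 that were counted in column 3 but not in column 2, which came to 43.0% and 76.4% of the ambiguous reads of column 2. With the Mir126b pair the numbers were 1280090 and 569775, equal to the ambiguous reads of each library.

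**Figure D3:**
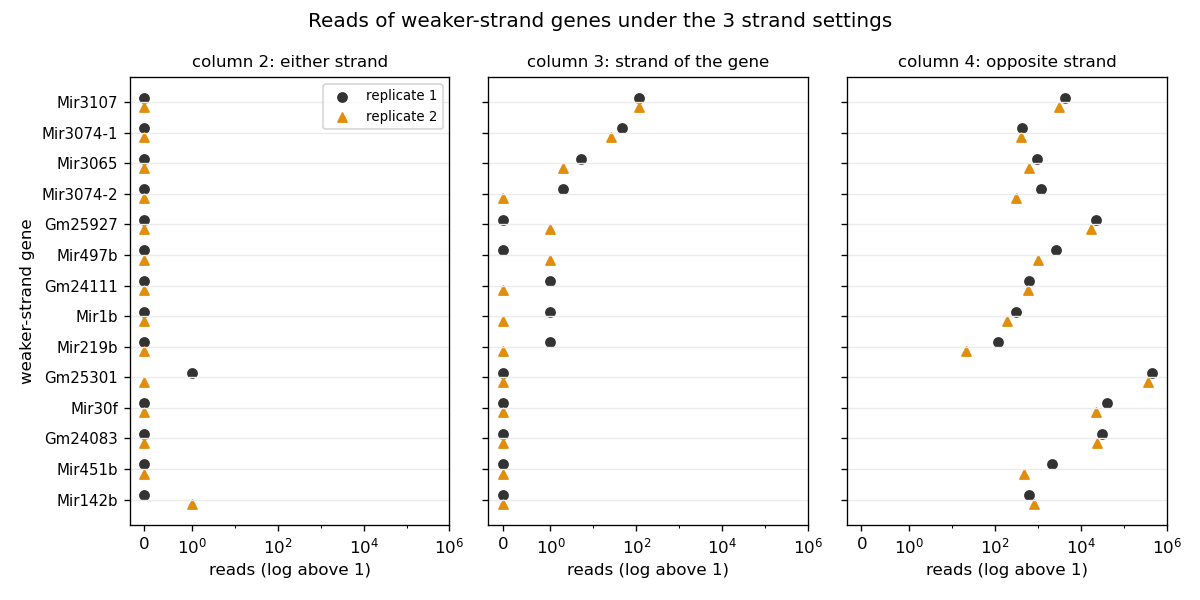
Reads of 14 weaker-strand genes, those with a read or with a partner of 1000 or more reads, in columns 2, 3 and 4 (log axes above 1, circles for replicate 1, triangles for replicate 2). Gm25301 goes from 0 reads in column 3 to 442178 and 363354 in column 4, and Mir3107 from 118 and 113 in column 3 to 0 in column 2.

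The libraries were compared gene by gene with an exact binomial test, which measures departure from counting error between these 2 libraries and not a difference between conditions. Of all 309 genes tested, 63.4% were called and 35.3% were higher in replicate 2. Of the 31 members, 2 passed the filter on low counts, and 1 of the 2 was called, from which nothing about the members can be read. Mir3107 had a log2 ratio of replicate 2 over replicate 1 of 0.55 (exact 95% interval 0.16 to 0.93; exact binomial test, two-sided, Benjamini-Hochberg adjusted p = 0.00804). Its partner Mir486 had a log2 ratio of 0.22 (0.15 to 0.28). When genes of any count were kept, 709 genes were tested, and the Mir3107 ratio was 0.43 with an adjusted p of 0.0755 in the exact test, above the threshold of 0.05. The red cell genes Mir451a and Mir144 had log2 ratios of -1.54 and -1.88 between the same libraries, and the endothelial gene Mir126a one of -1.83. Mir126a held most of the endothelial sum, so its ratio does not stand for the other endothelial genes. The part of such shifts in the Mir3107 ratio was not tested.

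Mir3074-1 was not called, with a log2 ratio of -0.24 (-0.99 to 0.48; exact binomial test, adjusted p = 0.649). Its partner Mir24-1 was higher in replicate 2, with a log2 ratio of 0.55 (0.35 to 0.75). Both tested members had a median log2 ratio of 0.15, the 20 tested partners one of -0.21 (7 higher, 9 lower, 4 not called), and all tested genes one of 0.01. The members that passed the filter are the most read ones and do not stand for all 31.

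The split of reads between the strands was not shown to differ between the libraries at any member. Of 329 genes with 10 or more reads on both strands together in each library, 20 were members. Fisher's exact test called 0 of the 20 members, with 0% of all 329 genes called and a lowest adjusted p of 0.126. At an unadjusted p under 0.05 there was 1 member, Mir3074-1 (9.92% against 5.96%, exact p = 0.0372, adjusted p = 1.0), and 5 genes in all, Mir24-1 included, since both genes of a pair enter with the same reads. The shares of Mir3107 (2.76% and 3.46%) gave an exact p of 0.0917. In 11 of the 20 pairs the weaker strand had no read in either library, so the test could not have called them. Tested members with 1 or 2 weaker-strand reads in all also had too few for a call after adjustment.

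Precursors of both leading members share sequence with another gene, so their counts hold only reads that fitted 1 place. The same limit applies to their partners Mir486 and Mir24-1, and so to the shares of these pairs. Of all reads, replicate 1 had 42.4% and replicate 2 had 43.2% that fitted several places and were counted for no gene. An identical run of 18 or more bases was shared with the partner by 4 members: Mir5615-2 (27 bases), Mir3107 (22), Mir299b (21) and Mir374c (20). Another 4 shared one with a different microRNA precursor, namely Mir3074-1 and Mir3074-2 with each other (30 bases) and Mir219b and Mir219c with each other (20 bases). In Mir3107, 10 of the 73 windows of 18 bases also occurred in Mir486, and in Mir3074-1, 13 of 68 also occurred in another precursor.

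The other 23 members shared no such run, with Mir451b (16 bases with Mir451a) and Gm24111 (16 bases with Mirlet7c-2) closest below. Across all 31 members the longest run shared with the partner had a median of 10.0 bases and a range of 5 to 27. Of the 22 members at 0, 4 had a shared run of 18 or more bases, and the other 18 had none. The comparison covered annotated microRNA precursors and not the rest of the genome. How many of the unassigned reads came from these loci was not measured.

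**Figure D4:**
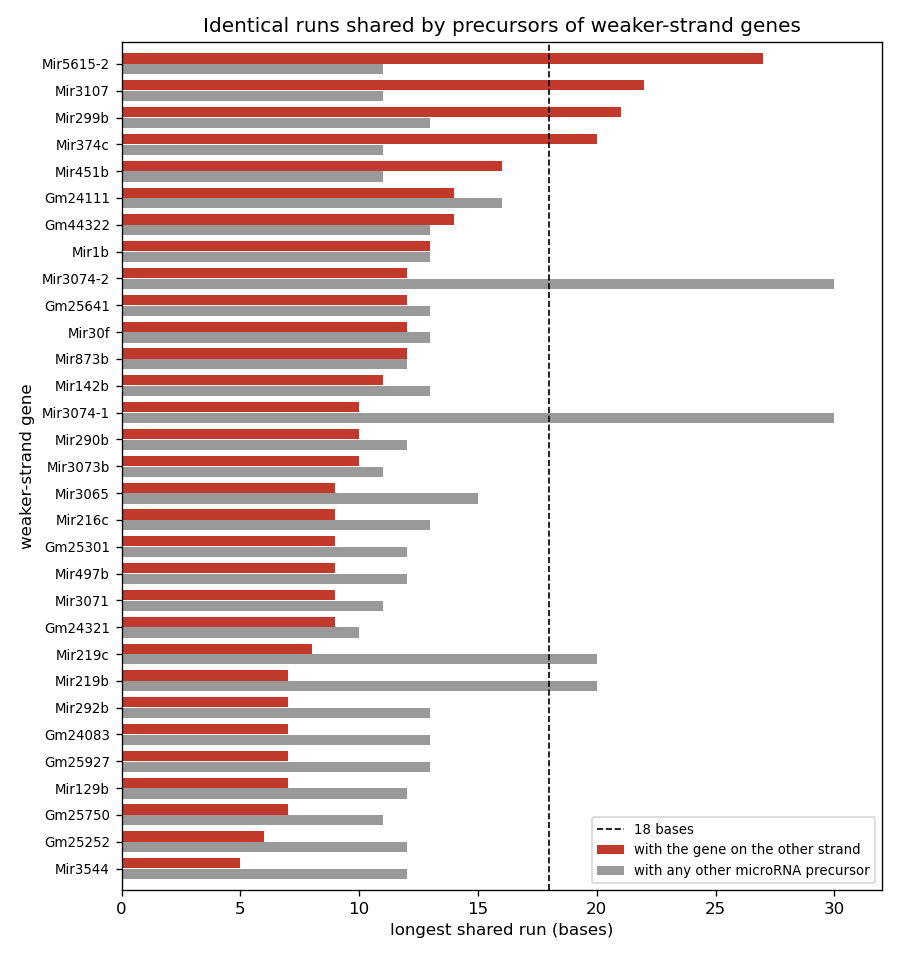
Longest identical run (bases) that each of the 31 weaker-strand precursors shares with the gene on the other strand and with any other microRNA precursor. A dashed line marks 18 bases, and Mir5615-2, Mir3107, Mir299b and Mir374c exceed it with their own partner.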

How the data were processed

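Small RNA libraries from 2 heart samples were analysed as 1 group. The authors' deposited tables hold raw read counts per microRNA gene, with no strand (column 2), on the gene's strand (3) and on the opposite strand (4), as the values show. Build mm10 and annotation M21 are named in the deposited readme, and the aligner is not given in the sources used here. Reads assigned to no gene stood in 4 leading rows, which held 68.4% and 67.8% of 13233055 and 8930289 reads and stayed out of totals. A count of 0 allows up to 3 reads, or 0.717 and 1.04 CPM. The libraries were not duplicates (chi-square 830 per degree of freedom).

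All 2202 identifiers matched the annotation. A host was a gene on the same strand containing the microRNA gene, protein-coding first and then smallest. Precursors for shared runs came from the M21 transcripts. Differences between libraries were tested per gene with an exact binomial test on column 3, scaled by TMM (edgeR 4.0.16, filterByExpr with a minimum count of 10, R 4.3.3). DESeq2 1.42.0 gave alternative size factors. The strand split was tested with Fisher's exact test. Both used Benjamini-Hochberg adjustment over all genes tested, with a threshold of 0.05. P-values measure counting error in these libraries only. On simulated data the binomial step (309 genes) recovered 95 of 100 at a 2-fold change and 68 of 100 at 1.5-fold, and the Fisher step (329 genes) 41 and 24 of 100. The Fisher simulation raised low opposite-strand shares to a floor far above the pooled 0.0323% of the members. Its recovery at lower shares is not known. Python 3.11.15 and scipy 1.17.1 were used.

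Members and lists were chosen with earlier results of these data known. Members with 10 or more column 3 reads in all and their partners were named in full, those with 1 to 9 in short, and of those at 0 the 5 with the highest partner sums. Mir374c, Mir299b and Mir5615-2 were named for their shared runs after their values were seen, and Mir290b, Mir3073b and Mir292b as closest to a tie.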

Additional observations from a re-analysis of the deposited data

How the results depend on the processing

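The pooled weaker-strand share of 0.0323% ranged from 0.0318% to 0.0329% when either library was left out. It was 0.0195% with Mir126b counted as a member and 50% in column 2, which rests on 1 member read and 1 partner read per library. The number of members detected, 2, was 9 with 1 count in either library, 0 in column 2 and 22 in column 4, and ranged from 2 to 3 with a library left out. The number of members with column 4 equal to the partner's column 3, 28, was 29 without either library. Of the tested members, 1 was called between libraries, and 0 when genes of any count were kept, where more genes were tested and scaling was refitted. DESeq2 size factors and plain totals called 1. Column 2 gave no value for that test, since no member passed its filter. With 1 library left out no test between libraries exists. Fisher's test called 0 members at a minimum of 50 reads or 1 read as well. No paired analysis was possible because the design holds 1 group. Depth limits the weaker-strand shares most at partners with few reads.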
